A study of Mus musculus with 4 samples.

Results

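Immunoglobulin transcripts in dissociated mouse lung tumors were described through 10 genes out of the 31055 features counted in each cell. The genes were taken by symbol. They were the kappa light-chain constant gene Igkc, the lambda light-chain constant genes Iglc1, Iglc2 and Iglc3, the heavy-chain constant genes Ighm, Ighd, Igha, Ighg1 and Ighg2c, and Jchain, and all 10 were found once in the feature list. The cells came from 4 female mice, 2 in the Restored group and 2 in the Non-Restored group. All carried the XTR gene trap in Lkb1 (Lkb1XTR/XTR), which leaves the gene expressed until Cre inverts the trap and so switches Lkb1 off. All also carried a Cre-activated tdTomato reporter at Rosa26. Restored mice also carried FLPo-ERT2, a recombinase that tamoxifen switches on and that removes the trap. Tumors were started with Lenti-Cre in the airway of mice 6 to 12 weeks old on a mixed strain background and grew for 16 weeks, and mice of both groups then received 4 mg doses of tamoxifen for 2 weeks according to the sample labels, while the series' design text names vehicle or tamoxifen.

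Total viable cells, sorted only against a dead-cell dye, were profiled by droplet 3′ RNA-seq, which counts each captured molecule once as a unique molecular identifier (UMI). The 20351 cells held 58624795 UMIs, with a median of 1960 and no cell under 500. They form 1 pooled matrix that names no mouse, so the Restored and Non-Restored groups were not compared, barcodes shared between libraries were not counted, and each class of cells below is 1 sample without replicates. No p-value is therefore given. Intervals are exact 95% intervals that cover counting error only, and differences between classes are read against those.

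B cells build each antibody from 2 kinds of chain. A heavy chain starts as IgM or IgD and can switch to IgG, IgA or IgE, each encoded by its own constant gene, and a light chain is either kappa or lambda, usually 1 of them per cell. Plasma cells, the secreting end stage, fill most of their secretory pathway with antibody, and the J chain links IgA into pairs and IgM into larger rings. In the airways, IgA from plasma cells beneath the epithelium is the main antibody carried into mucus.

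Several of these genes are close copies, so their sequences show what a 3′ count can tell apart. The coordinates are those of GRCm38, the assembly also named mm10, in the GENCODE vM21 annotation, and each line gives the final 120 coding bases before the stop codon, 5′ to 3′. The lambda genes lie on the minus strand of chromosome 16, Iglc1 at chr16:19061618-19062071, Iglc3 at chr16:19065230-19065681 and Iglc2 at chr16:19198396-19200351. Capitals mark bases that differ from Iglc2.
Iglc2: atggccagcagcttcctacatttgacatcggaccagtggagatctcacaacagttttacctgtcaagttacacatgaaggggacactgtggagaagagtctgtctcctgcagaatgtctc
Iglc3: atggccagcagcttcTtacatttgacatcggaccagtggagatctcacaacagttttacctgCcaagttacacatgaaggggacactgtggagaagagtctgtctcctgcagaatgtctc
Iglc1: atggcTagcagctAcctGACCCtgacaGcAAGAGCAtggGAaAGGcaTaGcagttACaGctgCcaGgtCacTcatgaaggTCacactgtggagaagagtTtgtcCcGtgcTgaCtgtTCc
Iglc3 differed from Iglc2 at 2 of the 120 bases and Iglc1 at 38. The longest identical run between the Iglc2 and Iglc3 transcripts was 79 bases, and none of their windows of 91 bases, the length of the sequenced cDNA read, was shared. A full-length read can therefore be placed, but a read carrying a mismatch in the wrong place can be lost or moved between Iglc2 and Iglc3, and their split is uncertain.

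The IgG genes lie in a row on the minus strand of chromosome 12, with Ighg2c at chr12:113285325-113288932, Ighg2b at chr12:113302965-113307933, Ighg1 at chr12:113325240-113330523 and Ighg3 at chr12:113356224-113361232. Capitals mark bases of the secreted form that differ from Ighg2c.
Ighg2c: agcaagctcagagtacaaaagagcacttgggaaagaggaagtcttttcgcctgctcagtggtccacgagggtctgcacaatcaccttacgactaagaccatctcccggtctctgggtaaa
Ighg2b: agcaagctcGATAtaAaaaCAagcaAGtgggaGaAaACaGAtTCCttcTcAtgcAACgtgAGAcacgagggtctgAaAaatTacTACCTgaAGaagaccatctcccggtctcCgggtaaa
Ighg1: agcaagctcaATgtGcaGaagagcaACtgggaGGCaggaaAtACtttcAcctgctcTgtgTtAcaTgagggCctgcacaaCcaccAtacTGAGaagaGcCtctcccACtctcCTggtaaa
Ighg2b differed from Ighg2c at 37 of the 120 bases and Ighg1 at 30. The longest identical run was 78 bases between Ighg2b and Ighg2c and 28 between Ighg1 and Ighg2c. The feature list holds Ighg2c and no gene named Ighg2a, the related gene that some mouse strains carry in its place. The other members are Igkc at chr6:70726435-70726966 on the plus strand, and Jchain at chr5:88519809-88527891, Igha at chr12:113254830-113260236, Ighd at chr12:113406604-113416324 and Ighm at chr12:113418558-113422730 on the minus strand.

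After a filter on genes per cell and mitochondrial share, 19488 cells were kept, and cells were sorted into 13 classes by lists of marker genes, at least 3 of which had to be detected. A plasma-like class came first and held every cell with a Jchain and an Mzb1 UMI outside the plasmacytoid dendritic (pDC) class, Mzb1 being a chaperone of antibody assembly. There were 1920 B-like cells, 9.85% of the cells kept (95% interval 9.44 to 10.3%), with a median of 1359.5 UMIs, and 82 plasma-like cells, 0.421% (0.335 to 0.522%), with a median of 4882. Of the B-like cells, 265 sat at exactly 3 markers, and 105 further cells led by B markers had only 2 and stayed out. In the B-like class, 6 of the 10 leading genes by fold were its own markers, among them Cd79a, Ms4a1 and Cd79b. The gate had used these markers, so this is no independent check of the label. The gate set aside 667 cells that carried markers of a second class, and 3102 cells remained unassigned.

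The 10 genes together gave 190247 UMIs, 0.357% of all UMIs in the cells kept. The plasma-like cells, few as they were, held most of the antibody RNA. They contributed 82.3% of the Igkc UMIs, 93.4% of Igha, 96.5% of Jchain, 97.5% of Ighg2c and 99.0% of Ighg1, whereas B-like cells held 85.5% of Ighd, 70.8% of Iglc3, 60.8% of Iglc1 and 55.9% of Iglc2. Ighm was the most dispersed, with 38.8% in B-like cells, 33.7% in plasma-like cells and 12.5% in the 11 classes other than B-like, plasma-like and pDC-like. The heat map of summed levels shows both patterns, a plasma-like row bright in nearly every gene and an Ighm column that does not fade to a common background.

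**Figure D1:**
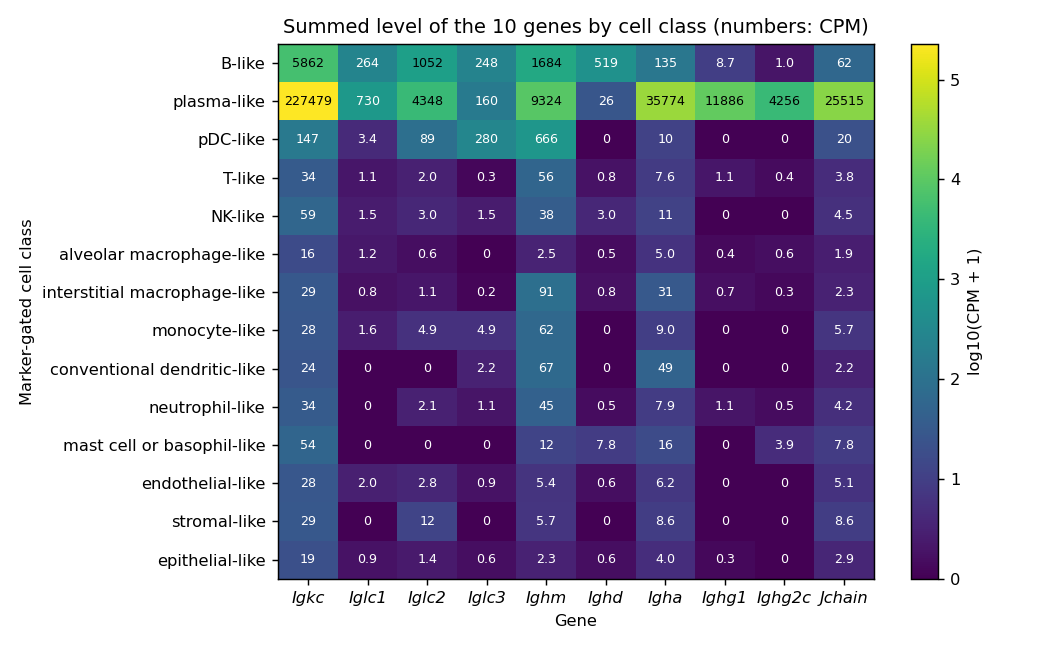
Summed level of each of the 10 genes (columns) in each marker-gated class (rows), printed as CPM, the gene's UMIs scaled to 1000000 UMIs of the class, and coloured by log10(CPM + 1). Igkc reached 227479 CPM in plasma-like and 5862 CPM in B-like cells, and lay between 15.7 and 58.8 CPM in the 11 classes other than these and the pDC-like class.

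Kappa was the main light chain of the B-like cells. Igkc stood at 5862 CPM (5776 to 5950), with 96.3% of cells carrying a UMI, and Iglc2 at 1052 CPM (1016 to 1089), Iglc1 at 264 CPM (246 to 283) and Iglc3 at 248 CPM (230 to 267). A B-like cell had a median of 7 Igkc UMIs, with quartiles of 4 and 11. After thinning every cell to 1000 UMIs, so that depth did not differ, 94.4% of 1611 B-like cells still had an Igkc UMI (93.1 to 95.4%), compared with 2.18% of 827 epithelial-like cells (1.29 to 3.42%), a class that should lack it. Unthinned, 7.44% of the epithelial-like cells had an Igkc UMI at a median depth of 3842 UMIs. Among the other classes, the thinned share ran from 1.41% of alveolar macrophage-like cells to 5.26% of NK-like and 5.52% of mast cell or basophil-like cells, and was 12.1% in pDC-like cells.

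Light-chain choice was read in the 1589 B-like cells with at least 5 constant-region light-chain UMIs, calling a chain that held at least 80% of them. Of these, 962 cells (60.5%, 58.1 to 63.0%) were called kappa, 54 (3.40%, 2.56 to 4.41%) lambda, and 573 (36.1%, 33.7 to 38.5%) carried both. The histogram of kappa share has a small group of 36 cells at under 5% kappa and then climbs gradually, with no gap, up to the 343 cells at 95% or more. Because there is no gap, the split follows the threshold: kappa calls were 32.2% at a 90% share and 84.5% at a 60% share.

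**Figure D2:**
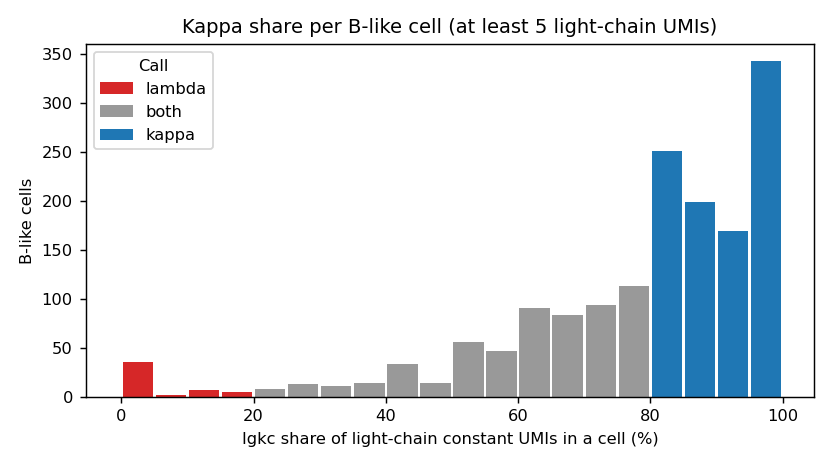
Number of B-like cells (vertical axis) by the share of a cell's light-chain constant UMIs that came from Igkc (horizontal axis, %), for the 1589 cells with at least 5 such UMIs. Colours mark the calls, with 54 lambda, 573 both and 962 kappa, and the grey middle runs into the blue bars without a gap.

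The variable segments, which the calls did not use, gave an independent reading of the same cells. Iglv segments, the variable part of a rearranged lambda chain, were seen in 66.7% of lambda-called cells (52.5 to 78.9%), in 1.56% of kappa-called cells (0.875 to 2.56%) and in 5.76% of cells called both (4.00 to 7.99%). Igkv segments were seen in 11.1% of lambda-called cells (4.19 to 22.6%), in 54.8% of kappa-called cells (51.6 to 58.0%) and in 50.8% of cells called both (46.6 to 55.0%). By their variable segments, cells called both therefore resembled kappa-called cells far more than lambda-called ones. The lambda UMIs themselves differed too: lambda-called cells had 14.1 Iglv UMIs per 100 Iglc1 to Iglc3 UMIs (11 to 17.9), cells called both had 2.03 (1.53 to 2.64) and kappa-called cells 1.53 (0.890 to 2.47). Median depth was close, at 1360 UMIs in kappa-called, 1464 in cells called both and 1518 in lambda-called cells.

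The lambda UMIs of cells called both were mostly Iglc2, with 1988 Iglc2, 389 Iglc1 and 383 Iglc3 UMIs beside 4746 of Igkc. Such counts were far above those of cells outside the B lineage. B-like cells as a whole had 1635 Iglc2 UMIs per 1000 cells, and the classes outside B-like, plasma-like and pDC-like cells had 4.63. Kappa-called cells had 751 per 1000 cells. Per 100 Igkc UMIs they had 6.02 (5.57 to 6.49), beside 6.05 (4.62 to 7.81) in the classes outside. The kappa call required an Igkc share of at least 80%, which limits this ratio, so the closeness is not read as a result. Plasma-like cells had 1.91 Iglc2 UMIs per 100 Igkc UMIs (1.83 to 2.00), compared with 17.9 in B-like cells (17.3 to 18.6).

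Among the 54 lambda-called cells, Iglc2 led in 23, Iglc1 in 20 and Iglc3 in 6, and 5 had a tie. In the mouse lambda locus, Iglv1 lies beside Iglc3 and Iglc1, and Iglv2 and Iglv3 lie beside Iglc2. The cells followed that map. Iglv1 UMIs were found in 15 of the 20 cells led by Iglc1 and in 5 of the 6 led by Iglc3, but in 3 of the 23 led by Iglc2. Iglv2 was found in 6 and Iglv3 in 4 of the cells led by Iglc2, and in 2 and 0 of those led by Iglc1. Over all B-like cells, Iglv1 gave 110 UMIs, Iglv3 43 and Iglv2 20, and the leading kappa segments were Igkv6-15 with 134, Igkv1-135 with 132 and Igkv12-44 with 108 of 1643 Igkv UMIs. Use was spread widely, with 84 of 160 Igkv and 67 of 185 Ighv segments seen, and Ighv9-3, Ighv1-14 and Ighv2-9 led the heavy segments at 12, 11 and 9 of 198 Ighv UMIs.

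The heavy chains of the B-like cells were those of unswitched cells. Ighm stood at 1684 CPM (1638 to 1731) and Ighd at 519 CPM (494 to 546), with a UMI in 80.3% and 48.9% of cells. Of 1048 cells with at least 3 heavy-chain constant UMIs, 1014 (96.8%, 95.5 to 97.7%) were called IgM or IgD, 8 IgA, 4 IgG and 22 mixed. None was called IgE, and a limit of 3 counts allows a share of up to 0.286%. Within the 1014 IgM or IgD cells, 632 (62.3%, 59.3 to 65.3%) carried both Ighm and Ighd, 358 carried only Ighm and 24 only Ighd. Counts of 3′ ends do not separate membrane from secreted forms, nor a rearranged transcript from one that starts within the constant locus.

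Switched genes were rare in this class, and 1 cell carried most of their signal. Igha was at 135 CPM and Jchain at 61.7 CPM in B-like cells, but a single cell had 310 Igha, 155 Jchain and 1323 Igkc UMIs without an Mzb1 UMI, which kept it out of the plasma-like gate. Without it, Igha fell to 30.9 CPM and Jchain to 9.73 CPM, while Igkc stood at 5425 CPM. The other 11 IgA or IgG cells had 2 to 41 Igkc UMIs. Ighg1 was at 8.71 CPM (5.69 to 12.8) and Ighg2c at 1.01 CPM (0.207 to 2.94), the latter from 3 UMIs.

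The 82 plasma-like cells fell into 2 ranges of Jchain with nothing between them. In 29 cells Jchain was at 1 to 5 UMIs, and in 53 cells at 17 to 995 UMIs, with a median of 132. The gate had required a Jchain and an Mzb1 UMI, so their presence is no result, but the other genes split the same way. The high-Jchain cells had a median of 7 of the 10 plasma cell check genes (such as Xbp1, the main driver of the secretory programme, and Sdc1, the surface marker CD138) and 2 of the 12 B markers. The low-Jchain cells had a median of 1 check gene and 6 B markers, and 18 of 29 had Ms4a1 (CD20) compared with 10 of 53. By these lists the 29 cells were closer to B-like cells. Of the 82 cells, 5 also reached 3 markers of a class outside the B lineage, 3 of them with high Jchain. A further 3 cells had at least 10 Jchain UMIs and no Mzb1 UMI, with 934 to 1323 Igkc UMIs, and 2 cells with both genes were outside the cell filter.

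**Figure D3:**
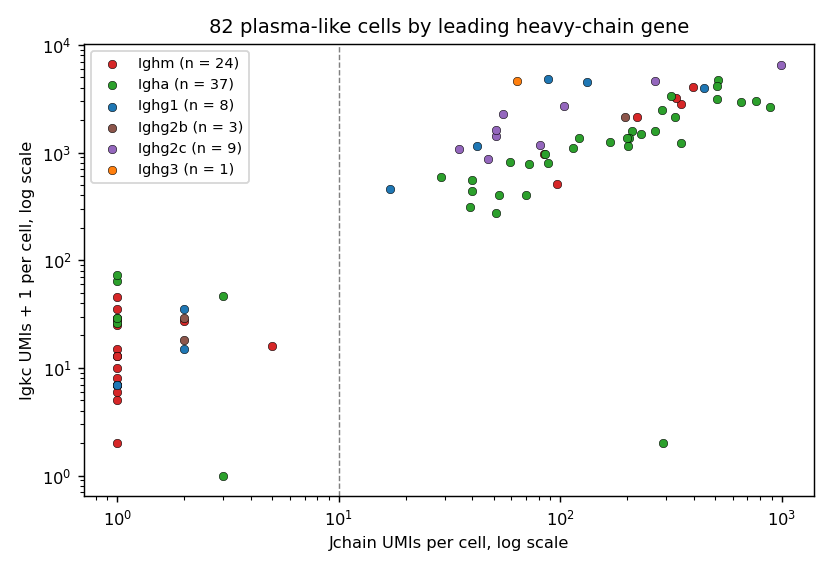
Each point is 1 of the 82 plasma-like cells, with its Jchain UMIs (horizontal, log scale) and its Igkc UMIs plus 1 (vertical, log scale), coloured by the heavy-chain constant gene with the most UMIs. The dashed line at 10 Jchain UMIs separates 29 cells with 1 to 5 from 53 with 17 or more, and the single green point at the lower right is an IgA cell with 1 Igkc and 1145 Iglc2 UMIs.

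Immunoglobulin genes and Jchain took between 10.6 and 81.0% of all UMIs in the high-Jchain cells, with a median of 44.3%, and between 0.0948 and 11.2%, with a median of 1.18%, in the low-Jchain cells. Igkc ranged from 1 to 6564 UMIs in the high-Jchain cells, with a median of 1416, and from 0 to 72, with a median of 15, in the others. Apart from the 1 lambda cell, the lowest Igkc count in a high-Jchain cell was over 3 times the highest in a low-Jchain cell.

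IgA was the leading isotype of the high-Jchain cells. Igha led in 31 of the 53 (58.5%, 44.1 to 71.9%), Ighg2c in 9, Ighm in 6, Ighg1 in 5, and Ighg2b and Ighg3 in 1 each. The bars of heavy-chain make-up show cells that are almost purely of 1 isotype: the leading gene held at least 98.8% of heavy-chain UMIs in every IgA cell, 100% in every IgM cell, and at least 98.6% in every Ighg1 cell. The deepest IgA cell had 1558 Igha UMIs and 1 of Ighm. In the low-Jchain cells the leading share had a median of 100% as well, on far fewer UMIs, and went down to 44.4%. Ighd gave 12 UMIs over all 82 cells, and Ighe gave 26, all in 1 cell led by Ighg1 with 1931 UMIs.

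**Figure D4:**
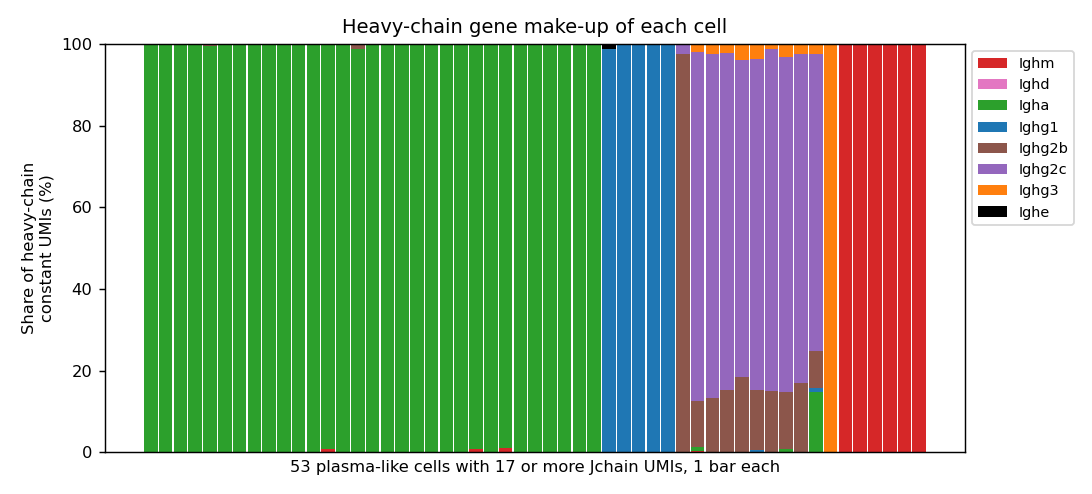
Share of each cell's heavy-chain constant UMIs (vertical axis, %) by gene (colours) for the 53 plasma-like cells with at least 17 Jchain UMIs, 1 bar each, ordered by leading gene. From left to right, 31 bars are led by Igha, 5 by Ighg1, 1 by Ighg2b, 9 by Ighg2c, 1 by Ighg3 and 6 by Ighm, and each Ighg2c bar carries a band of Ighg2b.

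The Ighg2c-led cells were the exception to that purity. Their leading share ran from 72.7 to 85.4%, the lowest in a cell that also had 18 Igha UMIs, and all 9 carried Ighg2b, at 12.5 to 24.0 UMIs per 100 Ighg2c UMIs with a median of 17.8, and Ighg3 at 1.48 to 5.21 per 100. The reverse was weaker, since the Ighg2b-led cell had 13 Ighg2c UMIs beside 508 of Ighg2b, or 2.56 per 100. The 5 Ighg1-led cells had no Ighg2b or Ighg3 UMI beside 5551 of Ighg1, and the Ighg3-led cell had no UMI of another IgG gene beside 1056. The Ighg2c-led cells also had the fewest counted heavy-chain UMIs relative to light-chain UMIs. They had 7.75 to 13.7 heavy-chain UMIs per 100 light-chain UMIs, with a median of 10.8. The range was 18.5 to 56.7 in IgA cells, 21.3 to 42.8 in IgM cells and 31.4 to 47.7 in Ighg1 cells, so the Ighg2c range overlapped none of these. The 9 Ighg2c-led cells include 7 with the same leading variable segments, described below. Whether the low ratio goes with the isotype or with that group of cells was not tested. The mice were of mixed strain background and the feature list holds no Ighg2a. Whether transcripts of that gene were missed or counted elsewhere in these cells was not tested.

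Of these 9 Ighg2c-led cells, 7 shared their leading variable segments. In all 7 the most frequent heavy segment was Ighv1-5, at chr12:114513330-114513807, and the most frequent kappa segment Igkv3-1, at chr6:70703578-70704177. The final 120 of the 351 and 359 coding bases of these germline segments are given, and reads elsewhere in a segment's exons are also counted to it. Capitals mark the last cysteine codon, which precedes the part rebuilt in each B cell.
Ighv1-5: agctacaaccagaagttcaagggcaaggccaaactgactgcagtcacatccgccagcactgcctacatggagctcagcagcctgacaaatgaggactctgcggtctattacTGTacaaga
Igkv3-1: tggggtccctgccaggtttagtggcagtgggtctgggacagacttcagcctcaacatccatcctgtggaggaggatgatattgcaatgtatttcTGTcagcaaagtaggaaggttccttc
Across the 7 cells, Ighv1-5 gave 110 of 114 Ighv UMIs and Igkv3-1 gave 1265 of 1371 Igkv UMIs. By cell, Ighv1-5 gave 27, 15, 12, 20, 17, 12 and 7 UMIs, and Igkv3-1 gave 445, 234, 70, 208, 150, 80 and 78. The same cells had 4599, 2731, 1163, 2280, 1618, 863 and 1077 Igkc UMIs and 306, 218, 96, 243, 105, 95 and 88 Ighg2c UMIs. The other 2 Ighg2c-led cells had 6564 and 1416 Igkc UMIs, were led by Ighv3-2 with Igkv3-7 and by Ighv1-64 with Igkv3-10, and had 689 and 135 Ighg2c UMIs.

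No other leading pair recurred, but recurrence was weakly measured. Among the 50 high-Jchain cells with an Ighv UMI there were 44 leading combinations of heavy and kappa segments. These include the lambda cell, which had no Igkv UMI. Of the 44, 43 were seen in 1 cell. High-Jchain cells had a median of 4 Ighv UMIs, and in some the leading Ighv segment rested on 1 UMI. For example, Ighg1-led cells with 211 and 212 Igkv3-2 UMIs differed by leading Ighv segments of 1 UMI each. The remaining high-Jchain cells together had 7 Ighv1-5 and 11 Igkv3-1 UMIs, and the 1920 B-like cells had 3 and 8. Gene-level counts do not read the junction between segments, so they cannot say whether the 7 cells share a rearrangement, and whether the cells came from 1 mouse is not known from the pooled matrix. This pair was noticed after the values were seen.

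Each high-Jchain cell also kept mostly to 1 kappa segment. In 36 of the 52 cells with an Igkv UMI at least 90% of those UMIs came from 1 segment, the median over these cells was 98%, and 31 different segments led. Over all plasma-like cells, Igkv3-1 led with 1280 of 7785 Igkv UMIs, then Igkv3-2 with 554 and Igkv1-110 with 497, and Ighv1-5, Ighv1-36 and Ighv5-4 led the heavy segments with 117, 25 and 23 of 336 UMIs. Lambda segments did not follow the light chain. In 45 of the 52 kappa cells with high Jchain, Iglv1 was present, with 1234 UMIs in all and up to 236 in a cell, beside 216 Iglc1 UMIs. That was 1.16 Iglv1 UMIs per 100 Igkc UMIs, and the kappa-called B-like cells had 0.0583 per 100, from 7 UMIs.

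Relative to antibody RNA, median Jchain was higher in IgA and IgM cells than in Ighg2c and Ighg1 cells. Per 100 constant-region UMIs of heavy and light chains, IgA cells had a median of 9.76 Jchain UMIs (range 3.68 to 23.2) and IgM cells 8.14 (6.42 to 13). Ighg2c cells had a median of 3.46 (2.11 to 13.4), Ighg1 cells 2.66 (1.38 to 7.34), the Ighg3 cell 1.13, and the Ighg2b cell 7.38, within the IgM range. The ranges of IgA and IgG cells overlapped, and every one of these cells had been gated on Jchain.

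Set against B-like cells, plasma-like cells had 38.8-fold more Igkc by CPM, a log2 difference of 5.28 (5.26 to 5.30). The log2 difference was 8.05 for Igha (7.91 to 8.20), 8.69 for Jchain (8.48 to 8.91), 10.41 for Ighg1 (9.86 to 11.03) and 2.47 for Ighm (2.41 to 2.53). Ighg2c had a log2 difference of 12.05 (10.50 to 14.33) on 3 UMIs in B-like cells. Ighd was lower by a log2 difference of -4.34 (-5.30 to -3.53) and Iglc3 by -0.63 (-0.99 to -0.29). Jchain was part of the gate, so its difference is no result. Of the other 9 genes, 6 were more than 4-fold higher and 1 more than 4-fold lower. Across the 2461 genes at 50 CPM or more in either class, 5.73% were more than 4-fold higher and 7.92% more than 4-fold lower. The Iglc2 difference, 4.13-fold, rests on 1 cell: without the lambda cell, Iglc2 in plasma-like cells was at 1935 CPM, under 4-fold of the 1052 CPM in B-like cells. CPM are shares of a total of which antibody RNA took much in plasma-like cells. The median log2 difference over the 2461 genes was -0.71, and taking CPM over the UMIs outside immunoglobulin genes moved it to 0.03 and changed the background to 8.57% higher and 2.78% lower. On that scale 7 of the 9 were more than 4-fold higher. Ighg1 and Ighg2c reached 50 CPM only in plasma-like cells and Ighd only in B-like cells.

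Genes of the secretory pathway were higher with the antibody genes. Of the 24 listed, 14 were more than 4-fold higher and none more than 4-fold lower, and on the scale without immunoglobulin UMIs 17 were higher. Over all tested genes, 5.73% and 8.57% were higher on these 2 scales. Of the 14, 5 reached 50 CPM only in plasma-like cells. The median log2 difference of the 24 was 2.19, against -0.71 for all genes. Hsp90b1, the endoplasmic reticulum chaperone GRP94, went from 212 to 2124 CPM (log2 difference 3.32, 3.18 to 3.47). Sdf2l1, a partner of the chaperone BiP, had a log2 difference of 3.95 (3.47 to 4.45), Edem1, which marks misfolded proteins for disposal, 3.83 (3.45 to 4.21), and Ssr4, a part of the translocon, 3.18 (3.02 to 3.34). Hspa5, which encodes BiP itself, was 2.45-fold higher and did not pass 4-fold, and Dnajb9, with a log2 difference of 0.36 (-0.07 to 0.78), was the lowest of the list.

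Of the 10 plasma cell check genes, 9 were more than 4-fold higher on both scales. Of these, 8 reached 50 CPM only in plasma-like cells, so their count is not read as a result. The shares over all tested genes were 5.73% and 8.57%. Xbp1 was at 613 CPM in plasma-like and 36.5 CPM in B-like cells, Txndc5, a disulfide isomerase, at 756 and 49.3 CPM, and Prdm1, which encodes the regulator Blimp-1, at 68.3 and 6.03 CPM. Tnfrsf17, the survival receptor BCMA, had 54 UMIs in plasma-like cells and 1 in B-like cells, a log2 difference of 8.43 (5.89 to 13.76). The exception was Irf4, at 222 and 149 CPM. The 3 other constant genes that were tested, Ighg2b, Ighg3 and Ighe, were also more than 4-fold higher, but reached the minimum only in plasma-like cells and rested on few cells. Without the top cell of each, Ighg2b went from 1806 to 730 CPM, Ighg3 from 2384 to 133 CPM and Ighe from 55.5 CPM to 0. Iglc4 had 1 and 5 UMIs and was below the minimum.

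Genes of the naive B cell were lower. In the list of naive follicular genes 6 of 7 were more than 4-fold lower, and 5 of 7 on the scale without immunoglobulin UMIs. Over all tested genes, 7.92% and 2.78% were lower on these 2 scales. Of the 6, 5 reached 50 CPM only in B-like cells, so this count is not read as a result. Cxcr5, which guides B cells into follicles, had a log2 difference of -4.70 (-7.75 to -2.83) and Fcer2a (CD23) of -3.33 (-4.47 to -2.39). Of the 16 B cell receptor signalling genes tested out of 18, 6 were more than 4-fold lower, among them Cd72 and Fcgr2b, both inhibitory receptors, at -4.11 (-6.40 to -2.55) and -2.52 (-3.75 to -1.53). Here too, 5 of the 6 lower genes reached 50 CPM only in B-like cells. Only 2 of these 16 were more than 4-fold lower on the scale without immunoglobulin UMIs. The receptor's own signalling chains Cd79a and Cd79b did not pass 4-fold, at -1.67 (-1.85 to -1.50) and -1.51 (-1.75 to -1.27). With the class restricted to the 53 high-Jchain cells both lay just past it, at -2.01 (-2.24 to -1.79) and -2.03 (-2.37 to -1.71). That restriction gave 11 of 16 for this list, beside a background of 22.5% of 2454 genes more than 4-fold lower and 6.44% higher.

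Genes of the cell cycle were higher as well. Of the 8 listed, 5 reached 50 CPM, each only in plasma-like cells, so their count is not read as a result. Among them were Mki67 at 137 and 2.35 CPM (log2 difference 5.86, 4.74 to 7.23), Pclaf at 5.43 (4.54 to 6.44) and Top2a at 4.29 (3.45 to 5.20). At least 5 UMIs of the list were found in 12 of 82 plasma-like cells (14.6%, 7.80 to 24.2%) and in 2 of 1920 B-like cells (0.104%, 0.0126 to 0.376%). Depth differed, with medians of 4882 and 1359.5 UMIs, and the summed level was 660 and 16.8 CPM. The share at 5 UMIs was 8 of 53 in high-Jchain and 4 of 29 in low-Jchain cells. Genes of class switching and of the germinal centre were near the limit of detection. None of the 7 in either list reached 50 CPM. In the list for marginal zone and B-1 cells 3 of 9 genes were tested and none passed 4-fold.

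Outside the B lineage, the genes did not follow 1 pattern across classes. Igkc ranged from 15.7 CPM in alveolar macrophage-like cells (13.3 to 18.3) to 58.8 CPM in NK-like cells (41.8 to 80.4) across 11 classes, and Jchain lay between 1.86 and 8.60 CPM. CPM also depends on depth, with medians of 5460 UMIs in alveolar macrophage-like and 1142.5 in NK-like cells. Per cell, Igkc was at 0.0848 UMIs in alveolar macrophage-like and 0.0747 in NK-like cells, and between 0.0386 and 0.138 across the 11 classes. Ighm per cell was 0.404 UMIs in interstitial macrophage-like and 0.0132 in alveolar macrophage-like cells. Ighm ranged from 2.28 CPM in epithelial-like (0.985 to 4.50) and 2.45 CPM in alveolar macrophage-like cells (1.58 to 3.61) to 90.6 CPM in interstitial macrophage-like cells (84.9 to 96.6), with conventional dendritic-like cells at 66.7 CPM (45.0 to 95.2), monocyte-like at 62.4 CPM (49.1 to 78.1), T-like at 55.9 CPM (50.6 to 61.5), neutrophil-like at 45.2 CPM (36.2 to 55.8) and NK-like at 37.7 CPM (24.4 to 55.6). Endothelial-like cells were at 5.39 CPM (3.25 to 8.42), and the stromal-like and mast cell or basophil-like classes gave only 2 and 3 Ighm UMIs. Neighbours in the order from conventional dendritic-like to NK-like had overlapping intervals, whereas the interstitial macrophage-like class was above the T-like and the monocyte-like class, and epithelial-like, alveolar macrophage-like and endothelial-like cells were below all of them.

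**Figure D5:**
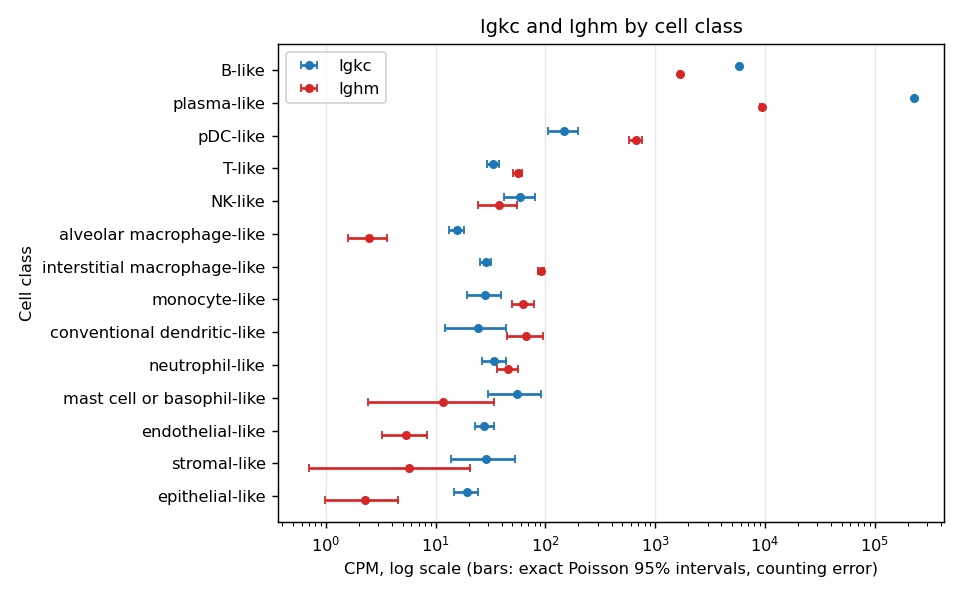
Igkc (blue) and Ighm (red) by cell class, in CPM on a log scale, with exact Poisson 95% intervals that cover counting error. From the T-like class downwards Igkc lies between 15.7 and 58.8 CPM, while Ighm runs from 2.28 CPM in epithelial-like to 90.6 CPM in interstitial macrophage-like cells.

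In interstitial macrophage-like cells, Ighm UMIs were 3.17 per Igkc UMI (2.77 to 3.62). The ratio was 0.287 in B-like (0.278 to 0.296), 0.0410 in plasma-like (0.0398 to 0.0422), 0.156 in alveolar macrophage-like (0.0982 to 0.239) and 0.119 in epithelial-like cells (0.0495 to 0.249). With 1 marker fewer needed for a class the epithelial-like ratio was 0.312 (0.179 to 0.523) and the interstitial macrophage-like ratio 3.75 (3.17 to 4.46). The 934 Ighm UMIs lay in 697 of 2311 cells (30.2%), 522 of which had exactly 1, and the most in a cell was 6. Thinned to 1000 UMIs, 9.78% of the cells had an Ighm UMI (8.59 to 11.1%), as against 0.0541% of alveolar macrophage-like cells (0.00137 to 0.301%). Median depths were 4290 and 5460 UMIs.

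The Ighm of these macrophage-like cells came with little of what accompanies it in B-like cells. They had 0.857 Ighd UMIs per 100 Ighm UMIs (0.369 to 1.69) and 1.61 of Cd79a (0.895 to 2.66), and B-like cells had 30.8 (29.1 to 32.6) and 110 (106 to 115). Plasma-like cells also had little Ighd, at 0.275 per 100 Ighm UMIs (0.142 to 0.480), and 6.25 of Cd79a (5.51 to 7.06). No Ighv UMI was found beside 1282 heavy-chain constant UMIs, an upper bound of 0.288 per 100, and B-like cells had 2.81 per 100 (2.43 to 3.23) and plasma-like cells 1.09 (0.980 to 1.22). Igkc was found about as often in cells with an Ighm UMI (8.03%) as in cells without one (7.56%). Igha was also uneven, at 30.7 CPM (27.5 to 34.3) in interstitial macrophage-like and 48.9 CPM (30.6 to 74.0) in conventional dendritic-like cells but 3.99 CPM (2.18 to 6.70) in epithelial-like cells. With 1 marker fewer needed for a class, the interstitial macrophage-like value was 15.5 CPM (12.7 to 18.9). In T-like cells, 412 Ighm UMIs came with 6 of Ighd, 9 of Cd79a and 5 Ighv UMIs. The source of the Ighm and Igha UMIs in these classes was not tested.

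The 99 pDC-like cells stood apart with a set of their own. Ighm was at 666 CPM (576 to 766), with a UMI in 81 of 99 cells, and Iglc3 at 280 CPM (223 to 348), as high as the 248 CPM of B-like cells and above the 88.8 CPM of Iglc2 (58.0 to 130) and the 147 CPM of Igkc (106 to 198) in the same cells. Iglc3 UMIs lay in 49 cells with at most 5 in each, compared with 2 UMIs in all 3868 T-like cells. No Ighd UMI was found beside 195 Ighm UMIs, an upper bound of 1.91 per 100, no Ighv UMI was found, and Cd79a gave 1 UMI. Ighg1 and Ighg2c were at 0, for which 3 counts allow up to 10.2 CPM. Mzb1, by which plasma cells were gated, was at 201 CPM (153 to 260), and 5 pDC-like cells had a Jchain UMI, 3 of them with Mzb1. The pDC and B lists share no gene, but Spib, a B marker, was among the leading genes by fold of the pDC-like class. The B and pDC classes were exempt from the rule on second-class markers, so pDC-like cells with B markers were not set aside.

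Across the 14 classes, the genes outside immunoglobulin loci whose log2(CPM + 10) followed each gene most closely were listed among 6267 genes. Igkc was nearest to Pou2af1 (Pearson r = 0.970), a B cell coactivator, then Gm30211, Eaf2, Mzb1 and Vpreb3 (0.908). Ighm was nearest to A530032D15Rik (0.928), Mzb1, A530040E14Rik, Irf4 and Gm30211 (0.897). Jchain was nearest to Eaf2 (0.994), Tnfrsf17, Prg2, Ccr10 and Derl3 (0.956). Ccr10, a receptor for mucosal chemokines, was at 100 CPM in plasma-like and 0.335 CPM in B-like cells. Jchain and Mzb1 had gated the plasma-like class, so their places in these lists follow in part from the gate. Tnfrsf17, Prg2, Ccr10 and Derl3 were at 96.1 to 128 CPM in plasma-like cells and at 0.670 CPM or less in B-like cells. The points are classes of 1 pooled sample that share its libraries, so these values are a description.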

How the data were processed

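Droplet libraries (Chromium Single Cell 3′ v3) were aligned and counted by the authors with Cell Ranger 3.0.2 against the mm10 genome, to which GFP and TdTomato had been added, and the deposited values are raw UMI counts per gene and cell, pooled over 4 mice. From these counts, cells with at least 200 genes were kept if genes per cell and mitochondrial share were at or below their 98th percentiles. A class needed at least 3 detected markers and more than any other class, and cells with 3 markers of another lineage were set aside in place of a doublet caller. This scoring, the split at 10 Jchain UMIs and the shared V pair were chosen after a look at the data, and the members, gene lists and tests with earlier results of these data known. UMIs were summed per class and scaled to CPM. Intervals were exact Poisson, Clopper-Pearson or conditional 95% intervals (scipy 1.17.1), checked on simulated data. A fold against 0 UMIs used a floor of 3. Shares of cells were also taken after thinning to 1000 UMIs. Named genes were the 10 members, listed pathway genes, the 3 leading V segments of each family and the 5 genes most like Igkc, Ighm and Jchain. Sequences were read from GENCODE vM21. Alternatives to the cell filter, gates, UMI minimums, call shares, thinning depth and fold are given at the end. One engineered allele shared by all mice and 1 listed gene are not reported here.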

Additional observations from a re-analysis of the deposited data

How the results depend on the processing

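Of 88 alternative values for the main results, 62 stayed within the main interval, or within 1.5 times a count of genes. The values that moved are given here. Of 127 alternative values for single genes and cell counts, 94 stayed and 33 moved. B-like cells numbered 1632 with upper cut-offs at the 95th percentile, 1486 with at least 500 genes and 1695 with 1 more marker. With 1 marker fewer, Ighm in interstitial macrophage-like cells was 101 CPM and 3.75 per Igkc UMI, Igha there was 15.5 CPM against 30.7 (24.2 with 1 more), and epithelial-like Ighm was 6.09 CPM against 2.28 and 0.312 per Igkc UMI against 0.119. The thinned share of these cells with an Ighm UMI was 4.85% at 500 UMIs, 17.1% at 2000 and 30.2% without thinning. A 90% share gave 32.2% kappa and 2.52% lambda, and a 60% share 84.5% and 6.99%. The IgM or IgD share was 97.8% at 10 heavy-chain UMIs, 98.5% at a 60% and 95% at a 90% call share. Plasma-like cells numbered 52 with at least 3 UMIs of Jchain and of Mzb1, 193 with 2 check markers in place of Jchain, and 53 with at least 10 Jchain UMIs, an alternative added after seeing the data, as was the total without immunoglobulin UMIs. Against 141 genes higher and 195 lower past 4-fold, the counts were 239 and 452 at a 20 CPM minimum, 95 lower at 100 CPM, 246 and 858 past 2-fold, 551 lower with at least 10 Jchain UMIs, and 240 and 78 over UMIs outside immunoglobulin genes. In the 2-fold, 20 CPM and 100 CPM settings fewer or more genes qualified by construction; the cause of the other moves was not tested. No paired analysis was possible because cells of the pooled matrix are not assigned to mice. Depth limits rare genes: in B-like cells Ighg2c rests on 3 UMIs.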

Other observations

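Genes that carry antibody across cells were measured in the same classes. Pigr, the receptor that moves dimeric IgA and IgM through epithelium, was at 14.5 CPM (10.8 to 19.1) in epithelial-like cells, from 51 UMIs in 18 of 847 cells, and at 4.36 CPM (2.32 to 7.45) in B-like cells. Fcgrt, the neonatal Fc receptor that recycles IgG, was at 179 CPM (170 to 187) in alveolar macrophage-like, 168 CPM (160 to 176) in interstitial macrophage-like, 132 CPM (96.5 to 176) in stromal-like and 127 CPM (96.0 to 164) in conventional dendritic-like cells, compared with 65.3 CPM (57.1 to 74.3) in endothelial-like and 9.13 CPM (6.24 to 12.9) in epithelial-like cells. Fcamr, a receptor for IgA and IgM, gave 9 UMIs in epithelial-like cells and 1 in B-like cells.

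The cells that no class took held a share of the antibody RNA. The 3102 unassigned cells had 3215 Igkc UMIs, 1129 of them in 1 cell, and 1216 Ighm UMIs, 578 of them in 1 cell. Without the top cell Igkc fell from 484 to 314 CPM. The 667 cells with markers of a second class had Igkc at 375 CPM (354 to 397) and Ighm at 172 CPM (158 to 188).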
